A study of Rattus norvegicus with 12 samples.

Results

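The genes described here encode potassium channel subunits (symbols starting with Kcn), voltage-gated sodium channel subunits (Scn) and pacemaker channels (Hcn). Of 101 such genes with a probe of their own on the arrays, 42 had a mean log2 expression value of 5 or more over all 12 arrays and are the subject of the report, out of 18166 named genes tested. The other 59 had lower means. The cells were labelled as wild-type primary rat cardiomyocytes, grown in serum-containing medium. They were left as control or kept with SIN-1, the peroxynitrite donor 3-morpholinosydnonimine, for 70 min, 4 h or 8 h, with 3 arrays in each of the 4 groups. The sources used here give no dose of SIN-1, no vehicle, no age of the rats and no harvest time for the control cells. They describe the replicates as biological without saying whether the cultures were separate, so p-values measure only the spread between these samples.

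Membrane excitability rests on the balance of these channels. Voltage-gated potassium channels repolarise the membrane, inward rectifiers and tandem-pore leak channels hold the resting potential, calcium-activated potassium channels couple it to intracellular calcium, sodium channels carry the upstroke of the action potential, and pacemaker channels carry an inward current on hyperpolarisation. In ventricular myocytes of rodents the fast transient outward current, built on Kcnd2 and Kcnd3 pores, gives early repolarisation, and the inward rectifier Kcnj2 sets the resting potential. Fibroblasts express leak and calcium-activated potassium channels as well.

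Few of these channel genes changed with SIN-1. After 70 min Kcnk2, a mechanosensitive tandem-pore leak channel, rose 1.58-fold and Kcnn4, the intermediate-conductance calcium-activated channel, rose 1.5-fold, while Kcnd3 fell 1.46-fold. After 4 h Kcnd3 stood 1.53-fold lower and Kcnb2, a delayed rectifier, 1.82-fold lower than in control cells. After 8 h no channel gene differed from control past the threshold used throughout, an adjusted p under 0.05 from limma with Benjamini-Hochberg adjustment over all named genes. The share of called genes was no larger among the channel genes than among all genes at 70 min: 3 of 42 (7.14%), against 14.6% of all named genes and 21.4% of the 11549 with a mean of 5 or more.

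The data go against the label of the cells for part of the cardiomyocyte markers. Of 15 cardiomyocyte markers tested, 4 had means under 4.34, the median value of the probes with no listed gene. These were Myh7 (3.57), Myh6 (3.78), Ryr2 (4.20) and Actn2 (4.33), which encode myosin heavy chains, the sarcoplasmic calcium release channel and a Z-disc protein. Tnnc1 (7.14), Pln (7.94) and Atp2a2 (9.73) were well above that median. All 12 fibroblast markers exceeded it, among them Col1a1 (12.77), Fn1 (12.86) and Vim (13.13), as did the smooth muscle markers Tagln (12.46) and Pdgfrb (10.19). The list medians were 4.77 for cardiomyocyte, 10.14 for fibroblast and 7.30 for smooth muscle markers. Endothelial, leukocyte and neural markers had list medians of 4.39, 3.87 and 5.05, and their brightest members were Egfl7 (5.96), Cd14 (7.62) and Stmn2 (9.07). Values of different probes are not amounts of RNA, so these figures state which probes stood above the unlisted ones and not the make-up of the cultures. In bulk samples fewer cells of a type and less RNA per cell cannot be told apart.

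The stretches before the annotated starts of Kcnd3 and Kcnk2, called in opposite directions at 70 min, were picked because they differ in base composition. They are the 250 bases upstream of the outermost start in RefSeq, assembly GRCr8, 5′ to 3′ on the gene's strand. The Kcnd3 stretch lies at chr2:195626066-195626315 on the plus strand with 79.6% G and C. That of Kcnk2 lies at chr13:103494687-103494936 on the minus strand with 42% G and C. Of the other called genes with a matched promoter, Kcng2 had 72.8% G and C and Kcnj2 66%. Kcng2 was called lower and Kcnj2 higher at 8 h against 70 min. A link between base composition and direction was not tested.
Kcnd3: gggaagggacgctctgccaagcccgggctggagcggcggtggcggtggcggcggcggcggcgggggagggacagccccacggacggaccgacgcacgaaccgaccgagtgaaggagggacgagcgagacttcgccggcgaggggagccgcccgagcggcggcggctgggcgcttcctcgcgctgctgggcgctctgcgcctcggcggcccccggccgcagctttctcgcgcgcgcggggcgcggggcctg
Kcnk2: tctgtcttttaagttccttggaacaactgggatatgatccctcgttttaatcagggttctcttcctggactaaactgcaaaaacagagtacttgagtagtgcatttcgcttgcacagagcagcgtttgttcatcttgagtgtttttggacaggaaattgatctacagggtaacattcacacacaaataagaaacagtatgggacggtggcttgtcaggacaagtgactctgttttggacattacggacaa

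No letters are in capitals because neither stretch holds, on either strand, any of the motifs searched: the cyclic AMP response element TGACGTCA, its short form TGACG, the nuclear receptor NR4A element AAAGGTCA and the E-box CACGTG. Promoter sequences were matched for 26 of the 42 channel genes, and Kcnb2 and Kcnn4 were not among them. Over those 26 the median content of G and C was 59.4%, against 51.2% over 33469 promoters of the same length. The short element, which lies within the long one, was in 4 of the 26 (15.4%), against 18.2% of all promoters. The other 3 motifs were in none of the 26, against 1.59% of all promoters for the long element, 1.24% for the NR4A element and 5.59% for the E-box. A match or its absence describes these letters only.

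By symbol, 12 of the 42 genes belonged to voltage-gated potassium pore families. These 12 include modifier subunits such as Kcng1 and Kcng2, which do not form channels alone. Next were 7 potassium channel accessory subunits, 5 inward rectifiers, 10 tandem-pore leak channels and 4 channels activated by calcium or sodium. The others were 1 sodium channel pore subunit (Scn2a), 1 sodium channel beta subunit (Scn2b) and 2 pacemaker channels (Hcn2 and Hcn3). Most of the 42 genes lay close to the level that chose them: 34 had means between 5 and 6. Just inside were Kcnk9 (5.06), Kcne1 (5.05) and Kcnt1 (5.04), and just outside were Kcna2 (5.00 when rounded), Kcnc1 (4.97) and Scn11a (4.96). The means of Kcnk9 and Kcnt1 were under 5 in control cells and at 8 h, and those of Kcnb2, Kcne1 and Kcns3 were under 5 at 4 h. At the other end were Kcnq5 (7.71), Kcnd3 (7.15), Kcnk12 (6.81), Kcnj8 (6.60) and Kcnip3 (6.52).

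Several genes that define currents of the working ventricle or the sinus node were under 5. Kcnd2 had a mean of 4.03 and its accessory subunit Kcnip2 one of 4.05. The Kv pores Kcna4 and Kcna5 had 4.10 and 4.35. The G-protein-gated rectifier subunits Kcnj3 and Kcnj5 had 4.47 and 4.72, the ATP-sensitive pore Kcnj11 had 4.51, the sodium channel subunit Scn4b 4.55, the pacemaker channel Hcn4 4.61, and the slow delayed rectifier pore Kcnq1 4.89. None of these 10 genes was called in any comparison, while 14.6% of all named genes were called at 70 min against control.

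**Figure D1:**
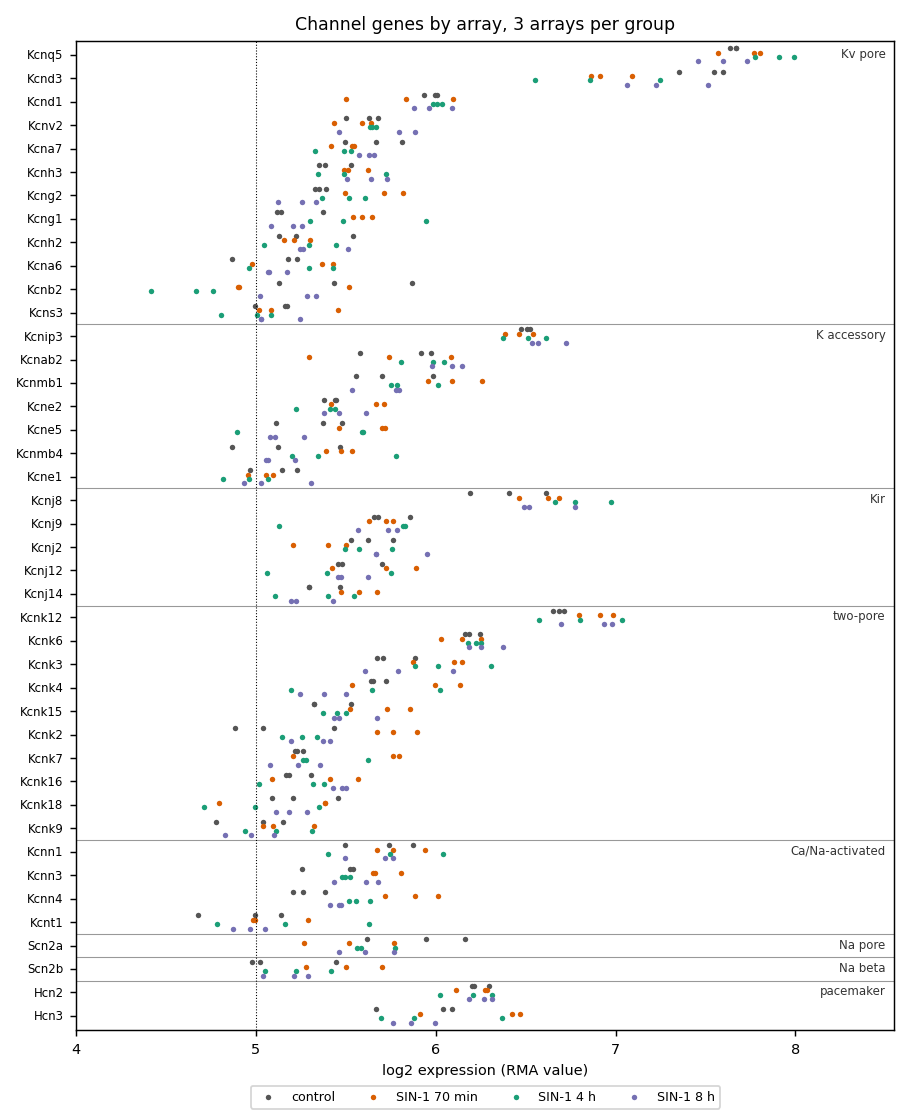
Log2 expression of the 42 channel genes in each of the 12 arrays (x axis), by role and, within a role, by mean; points are single arrays coloured by group and the dotted line marks the level of 5. Most genes lie between 5 and 6, and the points of the 4 groups overlap for most of them, with Kcnk2, Kcnn4 and Kcnd3 among the exceptions at 70 min.

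Among the voltage-gated pores, Kcnd3, a pore subunit of the fast transient outward current, had log2 expression values of 7.60, 7.35 and 7.55 in control cells, 7.09, 6.86 and 6.91 at 70 min, 6.86, 7.25 and 6.55 at 4 h, and 7.06, 7.22 and 7.51 at 8 h. All values at 70 min and at 4 h lay below the lowest control value, and the values at 8 h overlapped those of control cells. At 70 min the mean was 6.95 ± 0.12, against 7.50 ± 0.13 in control cells (SD, n = 3 each), a log2 fold change of -0.54 ± 0.15 (SE; limma adjusted p = 0.019). At 4 h it was 6.89 ± 0.35, a log2 fold change of -0.61 ± 0.15 (limma adjusted p = 0.0261), and at 8 h 7.27 ± 0.23, a log2 fold change of -0.23 (limma adjusted p = 0.937). The 4 h and 70 min values did not differ past the threshold (log2 fold change -0.07, limma adjusted p = 0.849). The direction held in each of 23 alternative fits, and the call in 17 of them at 70 min and 16 at 4 h. At 70 min the limma adjusted p was 0.0835 without control replicate 1, 0.0689 without control replicate 3, 0.0739 without 70 min replicate 2 and 0.0676 without 70 min replicate 3. At 4 h it was 0.122 without control replicate 1, 0.0968 without control replicate 3, 0.0821 without 4 h replicate 1 and 0.114 without 4 h replicate 3. The 4 h call was also lost with no trend in the prior variance (limma adjusted p = 0.0844) and with arrays centred on their medians (0.0768).

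Kcnb2, a delayed rectifier pore, had values of 5.44, 5.87 and 5.13 in control cells, 4.90, 4.90 and 5.52 at 70 min, 4.41, 4.67 and 4.76 at 4 h, and 5.33, 5.02 and 5.28 at 8 h. The values at 4 h lay below all others, and those at 70 min and 8 h overlapped control. At 4 h the mean was 4.61 ± 0.18, against 5.48 ± 0.37 in control cells (SD, n = 3 each), a log2 fold change of -0.86 ± 0.19 (SE; limma adjusted p = 0.0165). At 70 min the log2 fold change was -0.37 (limma adjusted p = 0.226) and at 8 h -0.26 (limma adjusted p = 0.947). The 4 h call was lost without control replicate 1 (limma adjusted p = 0.0539), without control replicate 2 (0.111) and without 4 h replicate 1 (0.0818).

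Kcng2, a modifier subunit that does not form channels alone, had values of 5.39, 5.35 and 5.33 in control cells, 5.50, 5.81 and 5.71 at 70 min, 5.52, 5.37 and 5.61 at 4 h, and 5.12, 5.33 and 5.26 at 8 h. It was highest at 70 min, above every control value, and at 8 h 1 value lay within the control range and the other 2 below it. The log2 fold change at 70 min against control was 0.32 (limma adjusted p = 0.0905). Set against 70 min, the mean at 8 h was lower, 5.24 ± 0.11 against 5.67 ± 0.16 (SD, n = 3 each), a log2 fold change of -0.44 ± 0.12 (SE; limma adjusted p = 0.019). That call was lost without 70 min replicate 2 (limma adjusted p = 0.0898), 70 min replicate 3 (0.0657) or 8 h replicate 1 (0.0791).

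The other 9 genes of the voltage-gated group were called in no comparison. Kcng1, another modifier subunit, had values of 5.14, 5.37 and 5.11 in control cells, 5.54, 5.59 and 5.65 at 70 min, 5.48, 5.30 and 5.94 at 4 h, and 5.21, 5.08 and 5.25 at 8 h. Its 70 min values lay above all control and 8 h values, with a log2 fold change against control of 0.39 (limma adjusted p = 0.0932). Kcnq5, a subunit of the M-type current, had log2 fold changes of 0.06, 0.24 and -0.06 at 70 min, 4 h and 8 h against control (limma adjusted p = 0.729, 0.206 and 0.99). Kcnh2, the pore of the rapid delayed rectifier, had log2 fold changes of -0.07, -0.03 and 0.04, with 95% intervals from -0.37 to 0.34 over the 3 comparisons. Kcnd1, Kcnv2, Kcna7, Kcnh3, Kcna6 and Kcns3 had log2 fold changes between -0.21 and 0.20 in the comparisons with control.

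**Figure D2:**
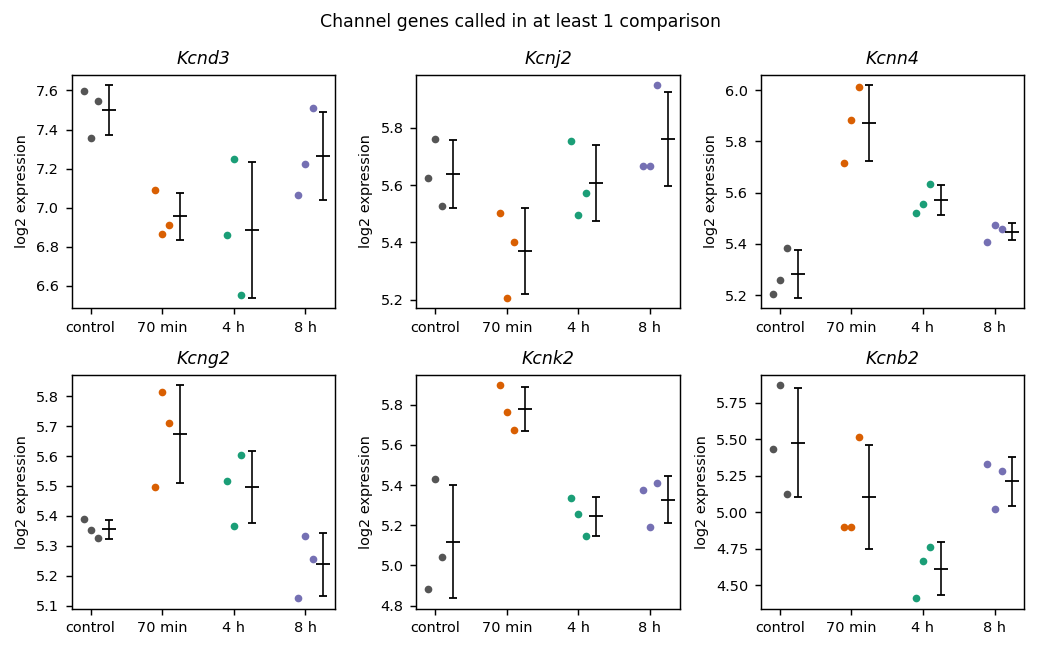
Log2 expression (y axis, scaled per panel) of the 6 channel genes called in at least 1 comparison, by group; points are single arrays and the bar beside them is the mean with its SD over 3 arrays. Kcnk2 and Kcnn4 are highest at 70 min, Kcnd3 is below control at 70 min and 4 h, and Kcnb2 is lowest at 4 h.

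None of the 7 potassium channel accessory subunits was called in any comparison. Over all named genes 14.6% were called at 70 min against control and 16% at 8 h against 70 min. Counts in groups this small cannot set 1 channel role apart from another. Kcnmb1, the beta subunit of the large-conductance calcium-activated channel in smooth muscle, came closest to a call among the 7. It had values of 5.98, 5.70 and 5.56 in control cells, 6.26, 5.96 and 6.09 at 70 min, 6.01, 5.75 and 5.78 at 4 h, and 5.79, 5.53 and 5.78 at 8 h. One control value lay within the 70 min range, and all 8 h values lay below the lowest value at 70 min. The log2 fold change was 0.35 at 70 min against control (limma adjusted p = 0.0905) and -0.40 at 8 h against 70 min (limma adjusted p = 0.052). At 8 h against 70 min Kcne5 had -0.48 (limma adjusted p = 0.0658) and Kcnab2 0.37 (0.151). In that comparison Kcnmb1 was called in 8 and Kcne5 in 5 of the 23 alternative fits. Kcnip3, a calcium-binding partner of the transient outward pores, moved little against control. Its log2 fold changes were -0.04, -0.00 and 0.10 at 70 min, 4 h and 8 h, with 95% intervals from -0.25 to 0.31 over the 3 comparisons. Kcne1, the partner of Kcnq1 in the slow delayed rectifier, had -0.08, -0.16 and -0.03 at the same times.

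Among the 5 inward rectifiers 1 gene was called, and not against control. In its comparison, 8 h against 70 min, 16% of all named genes were called. Kcnj2, the main pore of the cardiac inward rectifier current, had values of 5.62, 5.76 and 5.53 in control cells, 5.50, 5.21 and 5.40 at 70 min, 5.76, 5.49 and 5.57 at 4 h, and 5.67, 5.67 and 5.95 at 8 h. The 70 min values lay below all control and 8 h values. The log2 fold change at 70 min against control was -0.27 (limma adjusted p = 0.182). At 8 h against 70 min the means were 5.76 ± 0.16 and 5.37 ± 0.15 (SD, n = 3 each), a log2 fold change of 0.39 ± 0.13 (SE; limma adjusted p = 0.0452). That call held in 11 of 23 alternative fits, and it was lost when any 1 of the 3 control arrays, 70 min replicates 2 and 3, or any 1 of the 3 arrays at 8 h was left out (limma adjusted p between 0.0515 and 0.193).

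Kcnj8, the pore of the ATP-sensitive channel of vascular smooth muscle and pericytes, had values of 6.19, 6.61 and 6.41 in control cells, 6.46, 6.68 and 6.62 at 70 min, 6.97, 6.66 and 6.78 at 4 h, and 6.77, 6.49 and 6.52 at 8 h. All 4 h values lay above the control values, and those at 70 min and 8 h overlapped them. Its log2 fold change at 4 h was 0.40 (limma adjusted p = 0.0943). Kcnj12, a second pore of the inward rectifier current, had log2 fold changes of 0.13, -0.14 and -0.03 at 70 min, 4 h and 8 h against control, and its 4 h values ran from 5.06 to 5.75. Kcnj9 and Kcnj14, a G-protein-gated subunit and another inward rectifier, lay between -0.14 and 0.22 in the same comparisons.

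Among the 10 tandem-pore leak channels 1 gene was called, where 14.6% of all named genes were called at 70 min against control. Kcnk2, a background channel opened by stretch and lipids, had values of 4.89, 5.43 and 5.04 in control cells, 5.89, 5.76 and 5.68 at 70 min, 5.34, 5.25 and 5.14 at 4 h, and 5.37, 5.19 and 5.41 at 8 h. All 70 min values lay above every other value, and the later groups overlapped control. At 70 min the mean was 5.78 ± 0.11, against 5.12 ± 0.28 in control cells (SD, n = 3 each), a log2 fold change of 0.66 ± 0.14 (SE; limma adjusted p = 0.00356). This call held in all 23 alternative fits, with log2 fold changes between 0.54 and 0.81.

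The later groups of Kcnk2 were lower than the 70 min group. Against 70 min the log2 fold change was -0.53 ± 0.14 at 4 h (SE; limma adjusted p = 0.0259) and -0.45 ± 0.14 at 8 h (limma adjusted p = 0.0356). At 4 h the call was lost without 70 min replicate 1 (limma adjusted p = 0.0647), 70 min replicate 2 (0.0698), 4 h replicate 2 (0.0671) or 4 h replicate 3 (0.0733), and at 8 h when any 1 of the arrays of the 70 min or the 8 h group was left out (0.0538 to 0.15). The 4 h call was also lost with array weights (limma adjusted p = 0.0626) and with arrays centred on their medians (0.0632), and the 8 h call with the replicate block (0.0513), further quantile normalization (0.0552) and centring (0.096). Against control, the log2 fold changes of Kcnk2 at 4 h and 8 h were 0.13 and 0.21 (limma adjusted p = 0.756 and 0.938).

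The other 9 tandem-pore channels were not called. Kcnk3, an acid-sensitive leak channel of heart and vessels, had log2 fold changes of 0.29, 0.31 and 0.08 at 70 min, 4 h and 8 h against control (limma adjusted p = 0.202, 0.303 and 0.991). Kcnk12, a member with little current of its own, had 0.22, 0.12 and 0.19 at the same times. Kcnk4, a stretch-activated relative of Kcnk2, had values from 5.25 to 5.50 at 8 h, against 5.53 to 6.14 at 70 min, a log2 fold change of -0.51 at 8 h against 70 min (limma adjusted p = 0.0646). The point estimates at 70 min were above 0 for 8 of the 10 genes. They were above 0 for 27 of all 42 channel genes and for 10034 of the 18166 named genes. Kcnk6 was the only channel gene with several probes, and its log2 fold changes against control were between -0.05 and 0.07 with the brighter and between -0.03 and 0.01 with the other.

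Of the 4 channels activated by calcium or sodium 1 was called, where 14.6% of all named genes were called at 70 min against control. Kcnn4, known from red cells, lymphocytes and dividing fibroblasts, had values of 5.20, 5.26 and 5.38 in control cells, 5.72, 5.88 and 6.01 at 70 min, 5.52, 5.56 and 5.64 at 4 h, and 5.41, 5.48 and 5.46 at 8 h. Each SIN-1 group lay above every control value, with the 70 min group highest, then 4 h, then 8 h, and no overlap between the groups. At 70 min the mean was 5.87 ± 0.15, against 5.28 ± 0.09 in control cells (SD, n = 3 each), a log2 fold change of 0.59 ± 0.11 (SE; limma adjusted p = 0.00157). At 4 h and 8 h the log2 fold changes against control were 0.29 and 0.17 and did not pass (limma adjusted p = 0.212 and 0.938). At 8 h Kcnn4 was lower than at 70 min, with a log2 fold change of -0.42 ± 0.11 (SE; limma adjusted p = 0.0153), a call lost without 70 min replicate 3 (0.0822) or 8 h replicate 1 (0.0514). Kcnn1 and Kcnn3, small-conductance channels, and the sodium-activated channel Kcnt1 had log2 fold changes between -0.04 and 0.27 against control, none called.

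The sodium and pacemaker channel genes passed no test. They were few, and 14.6% of all named genes were called at 70 min against control. Scn2a, a sodium channel pore best known from neurons, had values of 6.16, 5.62 and 5.95 in control cells, 5.77, 5.27 and 5.52 at 70 min, 5.78, 5.58 and 5.56 at 4 h, and 5.46, 5.77 and 5.61 at 8 h. Every SIN-1 group overlapped the control range, and the log2 fold changes were -0.39, -0.27 and -0.30 (limma adjusted p = 0.103, 0.453 and 0.93). Scn2b, a beta subunit, had log2 fold changes of 0.34, 0.08 and 0.03 at 70 min, 4 h and 8 h (limma adjusted p = 0.152, 0.878 and 0.997).

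Hcn2, a pacemaker channel also found in ventricle, had values of 6.29, 6.21 and 6.20 in control cells, 6.11, 6.27 and 6.28 at 70 min, 6.21, 6.31 and 6.03 at 4 h, and 6.31, 6.27 and 6.18 at 8 h. The 4 groups overlapped, and the 95% intervals of its log2 fold changes against control ran from -0.27 to 0.24 over the 3 comparisons. Hcn3, its close relative, varied more: 5.67, 6.04 and 6.09 in control cells, 5.91, 6.42 and 6.47 at 70 min, 5.69, 5.88 and 6.37 at 4 h, and 5.99, 5.76 and 5.86 at 8 h. Its log2 fold change at 70 min was 0.34 (limma adjusted p = 0.231).

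**Figure D3:**
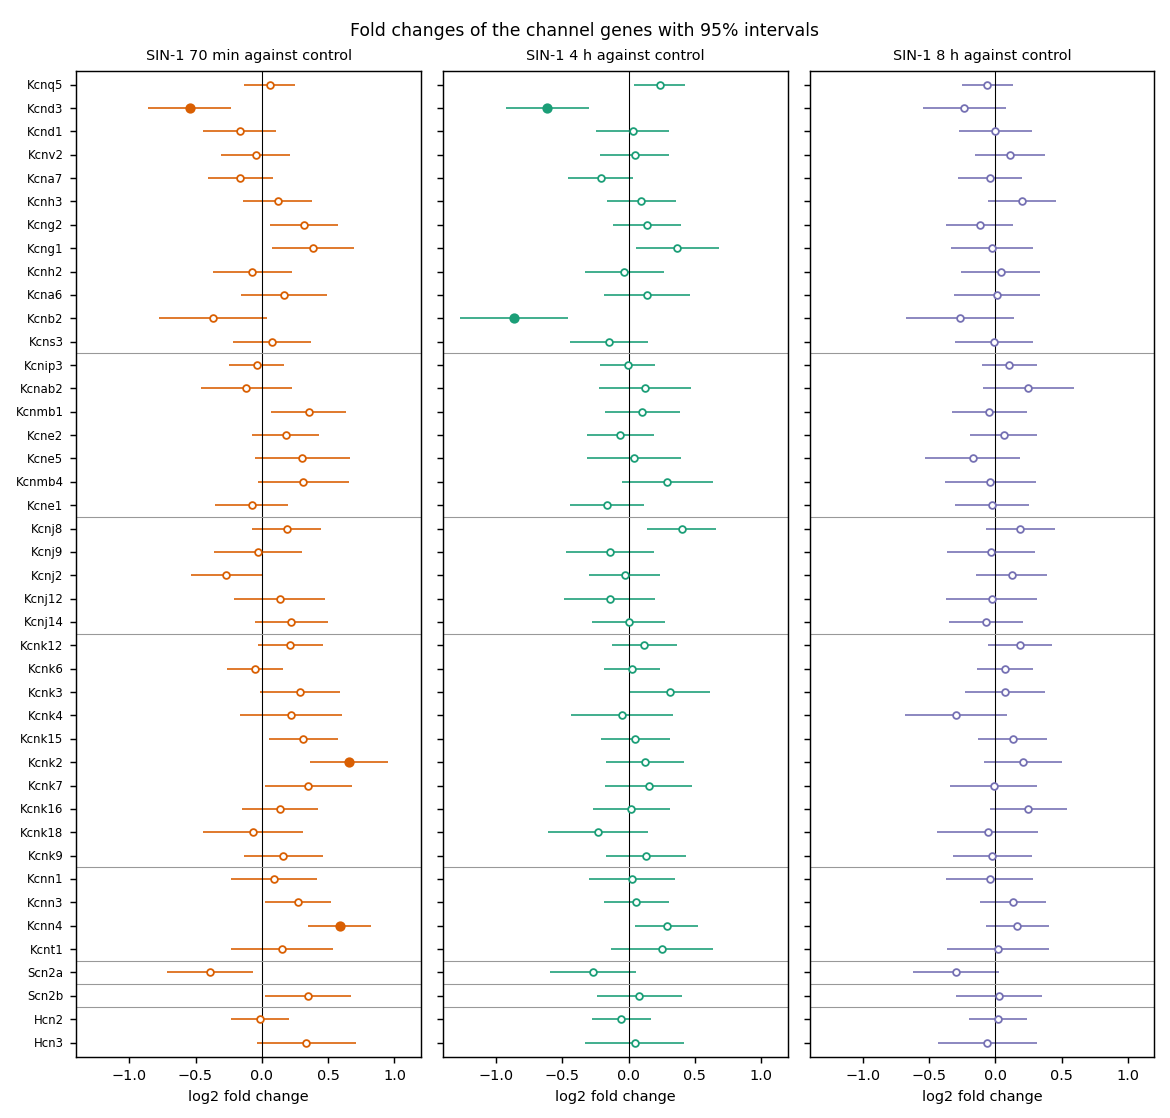
Log2 fold changes of the 42 channel genes against control (x axis) at 70 min, 4 h and 8 h, with 95% intervals from limma; filled points have an adjusted p under 0.05 and lines separate the role groups. Kcnd3, Kcnk2 and Kcnn4 are filled at 70 min, Kcnd3 and Kcnb2 at 4 h, and no gene at 8 h.

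Over the channel genes together, 3 of 42 were called at 70 min against control, 2 higher and 1 lower, against 6.76% of all named genes higher and 7.81% lower. At 4 h 2 of 42 were called, both lower (4.76%), against 3.85% of all named genes called, 2.08% higher and 1.77% lower, and against 5.76% of those with a mean of 5 or more. At 8 h limma called 0 of 42, against 0.0275% of all named genes. With a limma unadjusted p under 0.05 there were 0 of 42, against 993 of all 18166 named genes. The medians of the log2 fold changes were 0.14, 0.04 and -0.00 at 70 min, 4 h and 8 h, against 0.03, 0.01 and 0.01 over all named genes. Leaving out 1 array moved the first from 0.09 (without 70 min replicate 3) to 0.21 (without 70 min replicate 1), the second from 0.01 (without control replicate 1) to 0.09 (without 4 h replicate 2), and the third from -0.01 (without control replicate 1) to 0.04 (without control replicate 2). The 3 comparisons share the control arrays. Because the genes were chosen by their mean over these same arrays, these counts and medians are descriptions.

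The spread between arrays limits what can be said of the genes that were not called. The median 95% interval of a log2 fold change reached 0.29 to either side. The interval lay within a 1.5-fold change in both directions (0.58 on the log2 scale) for 28 of the 42 genes at 70 min, 33 at 4 h and 38 at 8 h. At 8 h the farthest bounds were -0.68 for Kcnk4 and 0.60 for Kcnab2, an accessory subunit of voltage-gated channels.

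Later times were also set against earlier ones. At 4 h against 70 min 1 of 42 was called, Kcnk2, lower (background 7.63%, with 4.48% higher and 3.15% lower). At 8 h against 4 h limma called 0 of 42 (background 3.51%). With a limma unadjusted p under 0.05 there were 5 of 42, against 2624 of all 18166 named genes. At 8 h against 70 min 4 were called: Kcnk2, Kcnn4 and Kcng2 lower and Kcnj2 higher, 9.52% of the channel genes, against a background of 16%, with 9.56% higher and 6.43% lower. When a fold of at least 1.5 was required besides, 2 channel genes were called at 70 min (Kcnk2 and Kcnn4) and 2 at 4 h (Kcnd3 and Kcnb2) against control, and 0 in each of the other 4 comparisons. The background under that rule was 4.07%, 0.98% and 0.022% at 70 min, 4 h and 8 h against control, 2.18% at 4 h against 70 min, 0.82% at 8 h against 4 h and 4.17% at 8 h against 70 min.

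The median value of all probes differed between arrays of the same group, and in 70 min replicate 1 (5.00) it was within the control range. For 70 min replicates 2 and 3 the median value of all probes on the array was 5.11 and 5.12, for 4 h replicate 3 it was 5.09, and for the other 9 arrays it ran from 4.98 to 5.05. On the first pair of arrays the channel genes stood a median of 0.22 and 0.21 above their control means, with 30 and 32 of 42 above, and in 4 h replicate 3 by 0.10, with 33 of 42 above. The median log2 fold change of the channel genes at 70 min was 0.14. With the array median as a covariate it was 0.02, and without those 3 arrays -0.01. With arrays centred on their medians it was 0.09, against -0.02 over all named genes. With further quantile normalization it was 0.11, against 0.04. Because 2 of the 3 arrays at 70 min have higher medians, the covariate cannot be fully separated from the 70 min group. With the covariate Kcnk2 and Kcnn4 were called at 70 min, and Kcnd3 was not (log2 fold change -0.38, limma adjusted p = 0.088). Without the 3 arrays Kcnk2 alone was called, with Kcnn4 at 0.43 (limma adjusted p = 0.107) and Kcnd3 at -0.41 (0.253); the lone 70 min array is then assumed to vary like the other groups. The fit with the covariate and the fit without the 3 arrays were chosen after the data were seen.

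**Figure D4:**
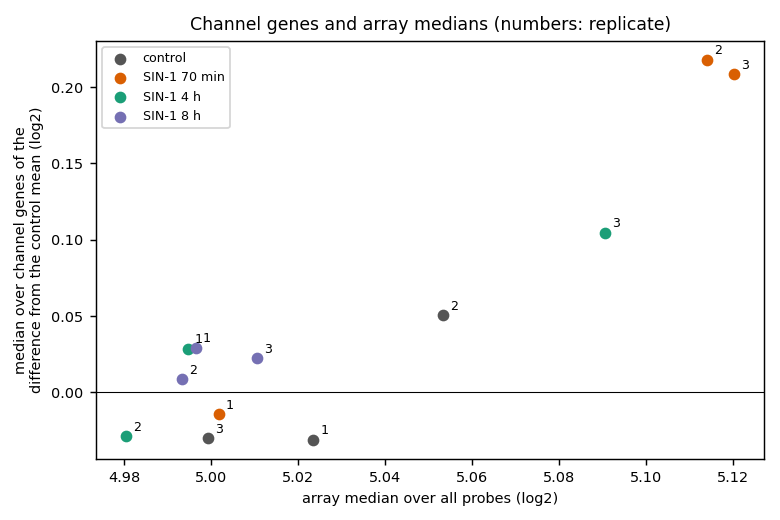
Median over the 42 channel genes of the difference from the control mean (y axis, log2) against the median of all probes (x axis, log2), 1 point per array, coloured by group and numbered by replicate. The 70 min replicates 2 and 3 and the 4 h replicate 3 stand at the upper right, and 70 min replicate 1 lies among the control arrays.

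Some cell type markers differed from control at 70 min. The summed linear level of the 15 cardiomyocyte markers was 1784 to 1866 at 70 min, against 1430 to 1562 in control cells. Atp2a2, a calcium pump found in most cells and the only one of these markers called at 70 min (log2 fold change 0.52), had 1036 to 1064 of this at 70 min, against 676 to 771 in control cells. The other 14 summed to 749 to 802 at 70 min, against 735 to 807 in control cells. The summed level of the 12 fibroblast markers was 34949 to 36058 at 70 min, against 36832 to 37448 in control cells. Of these 12 markers 4 were called lower, among them Lum (-1.42) and Dcn (-1.05). Over all named genes 6.76% were called higher and 7.81% lower at 70 min, and 2.08% and 1.77% at 4 h. At 4 h Atp2a2 was called higher (0.24) and Pln (-0.44) and Col3a1 (-0.18) lower. Of the smooth muscle markers Tagln was called higher at 70 min (0.13), and Pdgfrb lower at 4 h (-0.49). No endothelial, leukocyte or neural marker was called at 4 h or 8 h, and at 70 min Egfl7 (0.43) was called higher and Tek (-0.88) lower. Against 70 min, 3 fibroblast markers were called higher at 4 h and 4 at 8 h, among them Lum by 1.09 and 1.57 and Dcn by 0.61 and 1.21, while 2 cardiomyocyte markers were called lower at each time, Atp2a2 with Pln at 4 h and with Myh6 at 8 h. In the same comparisons 1 endothelial marker was called higher at each time and 1 smooth muscle marker lower at 4 h. For neural markers 1 was called lower at 4 h and 1 higher at 8 h. Over all named genes, 4.48% were called higher and 3.15% lower at 4 h against 70 min, and 9.56% and 6.43% at 8 h. The part of the array medians and of these cells in the changes of the channel genes was not tested.

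A wider list of genes of cardiac excitability was followed besides. Of 55 other excitability genes listed (partner subunits, anchoring proteins, pumps, exchangers, gap junction and chloride channels, regulators), 48 were tested. The median of their means was 6.38. At 70 min 6 of the 48 were higher than in control cells and 10 lower, against 6.76% and 7.81% of all named genes. Of the genes with a mean of 5 or more, 21.4% were called at 70 min in either direction. At 4 h 2 of the 48 were higher and 3 lower, against 2.08% and 1.77% of all named genes. At 8 h limma called 0, against 0.0275%. The median log2 fold change of the 48 at 70 min was -0.04. Fgf13 and Fgf14, intracellular proteins that bind sodium channels, fell by 0.60 and 0.91 on the log2 scale at 70 min (limma adjusted p = 0.01 and 0.0016). Ank2, the ankyrin that anchors ion transporters, fell by 0.64 (limma adjusted p = 0.00015), and Slc4a4, a sodium bicarbonate cotransporter, by 0.97 (4.2e-05). Dlg1, a scaffold that binds potassium channels, rose by 0.51 on the log2 scale (limma adjusted p = 3.1e-05). Dpp6, an accessory subunit of the transient outward current, was called higher by 0.46, at a mean level of 3.93.

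**Figure D5:**
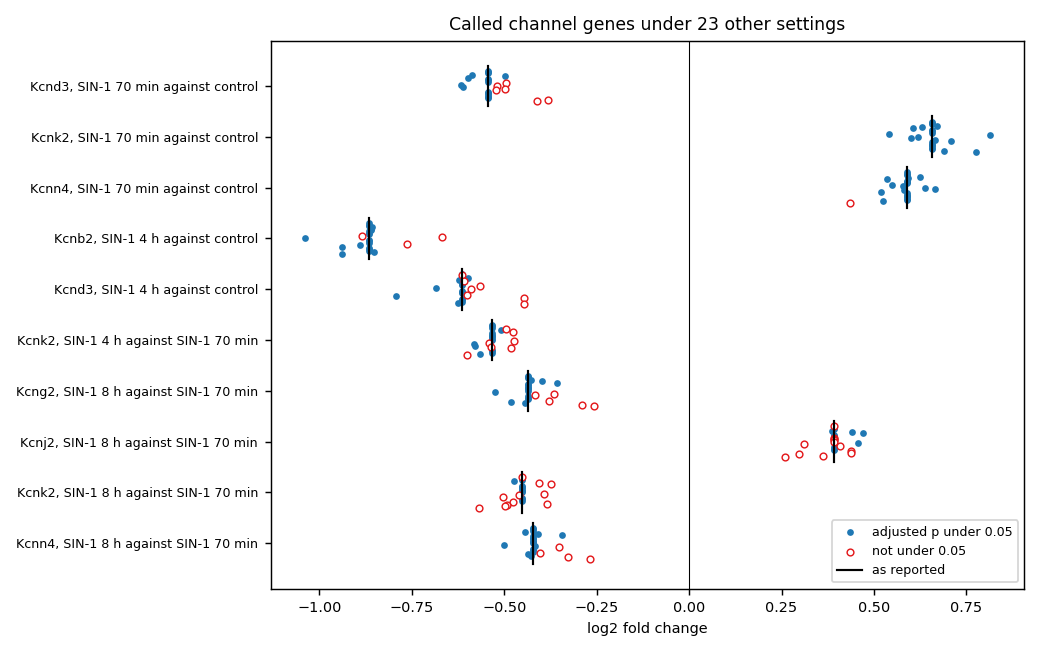
Log2 fold change (x axis) of each called channel gene and comparison under 23 alternative fits; filled points have an adjusted p under 0.05, open points do not, and the black bar is the value as reported. Every value kept its sign, Kcnk2 at 70 min is filled throughout, and Kcnj2 at 8 h against 70 min is open in 12 of 23.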

How the data were processed

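RNA of 12 samples of rat cells was amplified with a whole-transcript kit, biotin-labelled and read on one-colour arrays. The table the authors deposited holds log2 expression values of 36685 probes. Per the submitters' processing notes it was made by RMA with Affymetrix Expression Console, version 1.3.1.187; no unit is stated, and log2 was inferred from the range of 1.19 to 13.63. RMA equalises the intensities of arrays before they are summarised, so a change in RNA per cell cannot show, and folds near background are compressed. The medians of the deposited values still ran from 4.98 to 5.12 between arrays. Precision is limited by the number of arrays.

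The platform's annotation gave 18511 probes 1 gene symbol; 575 with several symbols were left out, and 17599 it does not list are unnamed here. The brightest probe stood for each of 18166 genes. All 42 channel genes matched RefSeq (assembly GRCr8) by gene ID and symbol.

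Group means were compared with limma 3.58.1 (R 4.3.3) in 1 linear model over 12 arrays, with 8 residual degrees of freedom and a variance prior that follows the mean level. The 6 comparisons were two-sided, each with Benjamini-Hochberg adjustment over all genes. Scripts were tested on simulated data. Deviations of same-numbered arrays correlated between -0.322 and 0.24, and those of differently numbered arrays between -0.405 and 0.403. With 3 arrays per group, centred on their own mean, these values cannot settle whether the numbers pair the arrays. Named in full are the called genes, those next to the level threshold, the 5 of highest level and 24 cardiac channel genes chosen by symbol, of which 19 were tested and the others are not reported here. The genes, gene lists and tests were chosen with earlier results of these data known. The 23 alternatives changed the replicate block, variance prior, array weights, normalization, centring, level filter, probe rule, groups fitted and arrays left out.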

Additional observations from a re-analysis of the deposited data

Results flagged for a closer look

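For 4 channel genes the level in a later SIN-1 group differed from that at 70 min by a direct test. Control cells had no stated harvest time, so time in culture and SIN-1 cannot be told apart in these comparisons. Kcng2 and Kcnj2 were called against control at no time. The share of channel genes called was below that of all named genes in both comparisons: 1 of 42 (2.38%), against 7.63%, at 4 h against 70 min, and 4 of 42 (9.52%), against 16%, at 8 h against 70 min. For Kcnk2 the log2 fold change at 4 h against 70 min was -0.53 (limma adjusted p = 0.0259) and at 8 h against 70 min -0.45 (0.0356), lower in all 3 arrays of each later group than in any array at 70 min. At 8 h against 70 min Kcnn4 had -0.42 (limma adjusted p = 0.0153) and Kcng2 -0.44 (0.019), each with all 3 arrays at 8 h below those at 70 min. Kcnj2 had 0.39 (limma adjusted p = 0.0452), with all 3 arrays at 8 h above those at 70 min. Without the 3 arrays of highest median, 2 of which are 70 min arrays, the same log2 fold changes were -0.60, -0.57, -0.27, -0.26 and 0.26 in that order, and none was called (limma adjusted p between 0.122 and 0.496), with the lone 70 min array assumed to vary like the other groups.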

How the results depend on the processing

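The counts of called channel genes are small, so 1 gene can move them by over 1.5 times; every called value kept its direction in all 23 alternatives. As reported, 3, 2 and 0 genes were called against control at 70 min, 4 h and 8 h, and 1, 0 and 4 for 4 h against 70 min, 8 h against 4 h and 8 h against 70 min. The count at 4 h against control was 1 with no trend in the prior variance and 1 with arrays centred on their medians, which also gave 0 at 4 h against 70 min. With array weights 8 were called at 70 min (19%, against 20% of all genes in that fit), 0 at 4 h against 70 min, 1 at 8 h against 4 h and 10 at 8 h against 70 min (23.8%, against 22.6%). Further quantile normalization gave 1 at 8 h against 4 h, and fitting only genes with a mean of 5 or more gave 8 at 8 h against 70 min (19%, against 27% of the genes in that fit). Asking besides for a fold of at least 1.5 gave 0 at 4 h and 0 at 8 h against 70 min, by construction of the stricter rule. Leaving out 1 array at a time gave 2 to 7 at 70 min, 0 to 2 at 4 h and 0 to 0 at 8 h against control, 0 to 1 at 4 h against 70 min, 0 to 1 at 8 h against 4 h and 0 to 7 at 8 h against 70 min. The 7 at 70 min came without 70 min replicate 1 (16.7%, against 17.1% of all genes), and the 7 at 8 h against 70 min without that array (against 18.6%) or without 4 h replicate 2 (against 16.2%). Of the 2 alternatives chosen after seeing the data, the array median as a covariate gave 1 at 8 h against 4 h and 0 at 8 h against 70 min, and leaving out the 3 arrays of highest median gave 1 at 70 min, 1 at 4 h, 0 at 4 h against 70 min and 1 at 8 h against 70 min. A fit with the replicate number as a block gave 4, 2, 0, 1, 0 and 3 in the order of the 6 counts above. Whether the numbers pair the arrays is not known. Apart from the constructions named, the cause of these moves was not tested. Of the 42 channel genes, 34 lay within 1 log2 unit above the level threshold, where folds are compressed.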

Other observations

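Among the 59 channel genes under the level threshold limma called 1 at 70 min against control (1.69%, against 14.6% of all named genes) and 3 at 8 h against 70 min (5.08%, against 16%), named here after their values were seen. Kcnk5, an acid-sensitive tandem-pore channel, had values of 4.42, 4.62 and 4.63 in control cells, 4.89, 5.47 and 5.23 at 70 min, 4.60, 4.79 and 5.10 at 4 h, and 4.67, 4.61 and 4.66 at 8 h. Its log2 fold change was 0.64 at 70 min against control (limma adjusted p = 0.0104) and -0.55 at 8 h against 70 min (0.0237), and the 70 min mean exceeded the threshold of 5. Kcne4, an accessory subunit, had values of 3.88 to 4.22 at 8 h, against 3.18 to 3.40 at 70 min (limma adjusted p = 0.00309), all under the median of the unlisted probes (4.34), as they were in all 12 arrays. Scn7a, an atypical sodium channel, had 4.16 to 4.71 at 8 h, against 3.75 to 3.96 at 70 min (limma adjusted p = 0.0163), and all its 70 min values lay under that median.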
